A study of Boehmeria nivea with 12 samples.

Results

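The data concern 200 unigenes whose level in stems of the ramie cultivar Z2 differed between water culture and no water culture, while the means of the cultivar H4 differed little. Of these members, 116 were higher and 84 were lower in water-cultured Z2 stems. Unigenes here are the transcript models that Trinity built from the reads with no genome. The deposited table lists 66881 of them by identifier, with no gene name or sequence. All values are FPKM, fragments scaled to transcript length and to the size of the library, and differences are on the log2(FPKM + 1) scale. Members were chosen among the 22261 unigenes with an FPKM above 0 in all 12 libraries. For H4, the difference a was the mean of H4T1, H4T2 and H4T3 minus the mean of H4CK2 and H4CK3. For Z2, the difference b was the mean of Z2T2 and Z2T3 minus the mean of Z2CK1, Z2CK2 and Z2CK3. A member needed an absolute a under 0.4, an absolute b of at least 1 and no overlap between Z2T2 and Z2T3 on one side and the 3 Z2CK libraries on the other. These limits were met by 548 unigenes, 277 rising and 271 falling, and the 200 with the largest absolute b were taken. The values of these 10 libraries chose the members, so a and b are a description and were not tested.

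Zhongzhu No2 (Z2) and Huazhu No4 (H4) are cultivars of ramie, Boehmeria nivea, a fibre crop that is multiplied by cuttings. Water-cultured stems (T) were the submerged parts of cut lateral shoots, with root primordia, after 10 days in tap water. Control stems (CK) were cut from the mother plants, so cutting, water and time changed together and cannot be told apart. Each of the 4 groups (H4CK, H4T, Z2CK and Z2T) had 3 libraries, and each library pooled 5 plants grown in the same greenhouse.

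Cuttings form roots from stem cells that were not part of a root before. In plants in general, wounding and the auxin that collects at the cut base start divisions in cells near the vascular tissue, and these cells organise into a root primordium that grows out through the stem. Whole-stem RNA averages over these few cells and all others, so more cells of a type and more RNA per cell cannot be told apart. The table gives no function for any member, and the members are named here by identifier and described by their levels.

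Both libraries that the rule left out stood apart from the groups in their labels. Across 16801 unigenes, the library labelled H4CK1 correlated at 0.982 and 0.974 with Z2T2 and Z2T3, against 0.822 and 0.832 with H4CK2 and H4CK3. The library labelled Z2T1 correlated at 0.976 and 0.968 with H4CK2 and H4CK3, against 0.816 and 0.812 with Z2T2 and Z2T3. Unigenes above 0 numbered 42401 in the library labelled H4CK1, 42291 in Z2T2 and 37887 in Z2T3, against 30586 to 34107 in the other 9. The labels were kept as deposited. An exchange of labels, which would change every contrast over the 12 libraries, was not tested. Counts that use these libraries as members of their labelled groups are therefore given with and without them. The FPKM sums of the libraries lay between 914642 and 1061225, and the members held 0.522% to 0.987% of them. Read counts were not analysed here, so the depth of each value is unknown.

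**Figure D1:**
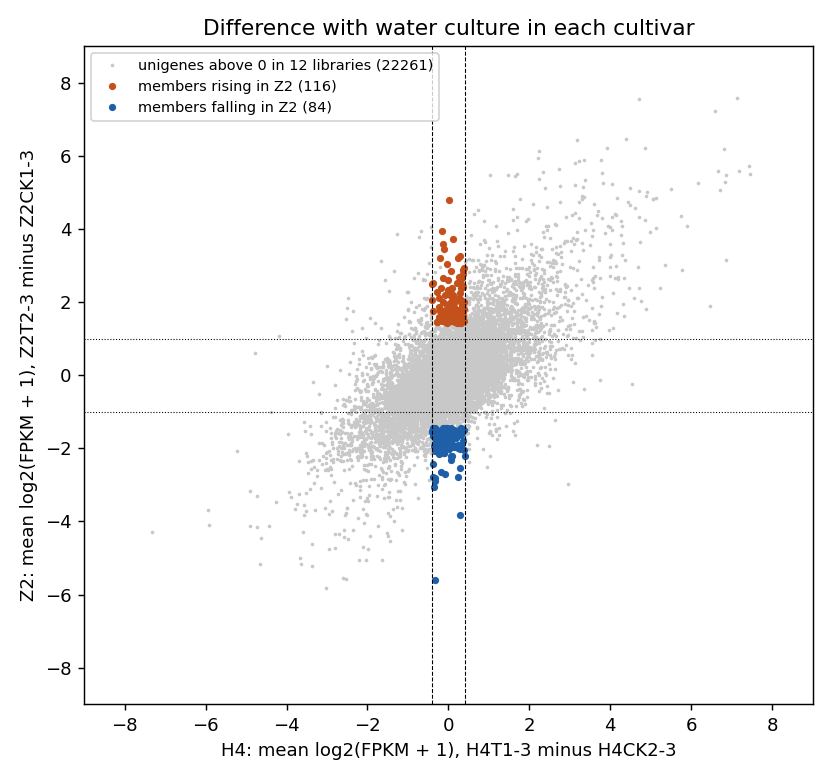
Difference with water culture in H4 (a, horizontal axis) and in Z2 (b, vertical axis) on the log2(FPKM + 1) scale, 1 point per unigene, without the libraries labelled H4CK1 and Z2T1. The 116 rising and 84 falling members lie between the dashed lines at an absolute a of 0.4 and beyond the dotted lines at an absolute b of 1, inside a cloud of 22261 unigenes that runs from lower left to upper right.

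The members were moderately expressed, and their change in Z2 was mostly under 4 times on the FPKM + 1 scale. The pseudocount shrinks differences of low unigenes, so the change in FPKM itself was larger. The median absolute b was 1.78, with a range from 1.42 to 5.60, and 64 members reached 2, of which 41 were rising and 23 falling. The median a was 0.09 for rising and -0.09 for falling members, beside 0.12 over all 22261 unigenes. The mean FPKM over the 12 libraries had a median of 8.67 among members, from 0.578 to 998, against 13.7 among all. With the cultivars exchanged, the same limits were met by 557 unigenes. An absolute difference of at least 1 without overlap in both cultivars was found for 1616 unigenes, of which 1580 moved in the same direction. Each list limited to 1 cultivar also needed a small difference in the other cultivar. Unigenes with a difference there above that limit, but too small for the list of both cultivars, were in none of these lists. The lengths of the lists thus depend on the chosen limits and are not compared.

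Rising members started from low values in untreated Z2 stems. Their median FPKM was 1.84 in Z2CK1, 3.12 in Z2CK2 and 4.14 in Z2CK3. It was 14.1 in Z2T2 and 16.0 in Z2T3. In H4 the median lay between these levels, at 6.76 in H4CK2 and 6.23 in H4CK3, and at 7.98, 6.74 and 7.41 in H4T1, H4T2 and H4T3. Of the left-out libraries, that labelled Z2T1 had a median of 5.80, close to the H4 libraries. That labelled H4CK1 had 10.8, above these H4 libraries and below Z2T2 and Z2T3.

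Falling members had their highest medians in untreated Z2 stems, and lower medians in the other 9 libraries. Their median FPKM was 20.2, 18.1 and 16.2 in Z2CK1, Z2CK2 and Z2CK3, and 3.81 and 3.71 in Z2T2 and Z2T3. In H4 it was 5.47 and 7.48 in H4CK2 and H4CK3, and 4.60, 6.42 and 5.92 in H4T1, H4T2 and H4T3. The library labelled H4CK1 was at 4.40 and that labelled Z2T1 at 5.90. These are medians, and single falling members were as high in H4 as in untreated Z2.

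**Figure D2:**
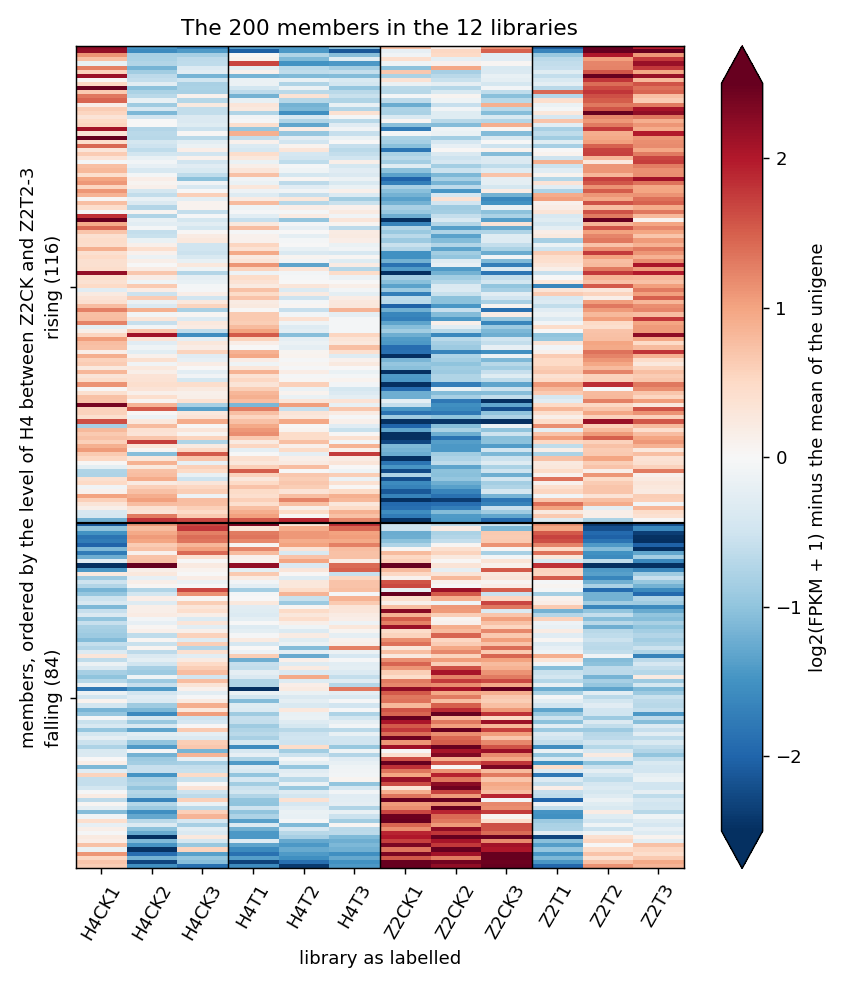
Level of each member (rows) in each library (columns), as log2(FPKM + 1) minus the mean of the unigene over the 12 libraries, with red above and blue below that mean. Rising members are above the horizontal line and falling members below it, each ordered by the level of H4 between Z2CK and Z2T2 with Z2T3. The 3 Z2CK columns differ from all others in 48 rising and 51 falling members.

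Spread within groups was larger among members than among all unigenes. Over the 5 H4 libraries of the rule, the range on the log2 scale had a median of 0.97 among members and 0.75 among all. It reached 1 in 95 of the 200 members (47.5%), against 33.9% of all. In 24 members, 9 rising and 15 falling, the H4 libraries spread over as much as b itself, so a small a in these came from means of scattered values. Within Z2CK the median range was 0.85 among members and 0.44 among all, and it reached 1 in 43.5% of members and 16.5% of all. Among rising members, Z2CK1 was the lowest Z2CK library in 73 of 116, while it was the lowest in 35.1% of all unigenes. Members were chosen on these same libraries, and a choice by the largest absolute b favours extreme Z2CK values. The spread and the place of Z2CK1 are thus a description.

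The left-out library labelled Z2T1 was compared with Z2CK, since the rule did not use its values beyond the filter above 0. It lay past all 3 Z2CK libraries in the direction of b in 147 of 200 members (73.5%). For rising members this was 82 of 116 (70.7%), against 27.5% of all unigenes in which Z2T1 exceeded the highest Z2CK library. For falling members it was 65 of 84 (77.4%), against 43.3% of all in which Z2T1 was below the lowest. In 35 members Z2T1 lay inside the Z2CK range. The rule also selected members on low or high values in Z2CK, which raises such counts for any library outside Z2CK.

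The level in Z2T1 lay inside the range of the 5 H4 libraries in 129 members (64.5%), close to the 66.0% of all 22261 unigenes. It reached the nearer of Z2T2 and Z2T3 in 63 members (31.5%), 24 rising and 39 falling, beside 14.0% of the 3195 unigenes with an absolute b of at least 1 and no overlap in Z2, whatever their a. The means of H4 and of Z2T2 with Z2T3 were at least 1 apart in 91 members. In these, Z2T1 was nearer to Z2T2 and Z2T3 in 11 (12.1%) and nearer to H4 in the rest, beside 7.14% nearer to Z2T2 and Z2T3 among all 2788 such unigenes. With Z2T1 counted in Z2T as labelled, 181 of the 200 members kept an absolute b of at least 1, and the median fell from 1.78 to 1.56.

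The library labelled H4CK1 moved in the direction of b away from the other H4 libraries more often than against it. It lay past all 5 of them in that direction in 93 members (46.5%) and on the other side in 30. For rising members the count was 62 of 116 (53.4%), beside 22.7% of all unigenes in which H4CK1 was above the other H4 libraries. For falling members it was 31 of 84 (36.9%), beside 20.2% below. The rule chose members on Z2T2 and Z2T3, with which this library correlated at 0.982 and 0.974. Such a choice favours these counts, so they are a description. Among the 91 members with H4 and Z2T2 with Z2T3 at least 1 apart, H4CK1 was nearer to Z2T2 and Z2T3 in 68 (74.7%), beside 89.0% of all such unigenes. With H4CK1 counted in H4CK as labelled, 148 of the 200 members kept an absolute a under 0.4. Of the other 52, 39 then had an a of opposite sign to b and 13 an a of the same sign.

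The rule put no limit on the level of H4 between the 2 states of Z2, and the members split by it. This level comes from the libraries that chose the members, so it is a description. On a line from the Z2CK mean (0) to the mean of Z2T2 and Z2T3 (1), the mean of the 5 H4 libraries had a median position of 0.52 for rising and 0.81 for falling members. Positions from 0.25 to 0.75, between both Z2 levels, held 62 rising and 21 falling members. Positions within 0.25 of 1, near water-cultured Z2, held 22 rising and 39 falling members. Positions within 0.25 of 0, near untreated Z2, held 24 rising and 8 falling members. H4 lay outside on the Z2CK side in 6 rising and 7 falling members, and outside on the Z2T side in 2 rising and 9 falling members. Among the 3195 unigenes above, taken whatever their a, 846 rising and 760 falling ones were between. Near Z2T there were 252 and 417 of them, and near Z2CK 346 and 237. The class rests on the pooled mean of H4. The means of H4CK2 with H4CK3 and of H4T each lay near Z2T in 49 of the 61 members of that class, and each near Z2CK in 24 of the 32.

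The left-out libraries differed between these classes, and did so among unigenes in general. Where H4 was near Z2CK, the library labelled Z2T1 lay past Z2CK in 7 of 24 rising and 2 of 8 falling members, at median positions of 0.02 and -0.05. Over the 3195 unigenes above, the shares in this class were 8.38% and 10.5%. The library labelled H4CK1 lay past the other H4 libraries in 21 of 24 and 7 of 8 of these members, at median positions of 0.56 and 0.90, beside 74.3% and 71.7%. Where H4 was near Z2T, Z2T1 lay past Z2CK in 22 of 22 rising and 38 of 39 falling members, beside 75.4% and 84.4%, and H4CK1 past the other H4 libraries in 4 of 22 and 4 of 39, beside 5.95% and 4.56%. Where H4 was between, Z2T1 lay past Z2CK in 51 of 62 and 16 of 21, beside 41.4% and 36.2%, and H4CK1 past the other H4 libraries in 32 of 62 and 13 of 21, beside 34.8% and 35.1%. The order of the classes was thus the same in both sets, and the members were chosen for a larger absolute b.

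**Figure D3:**
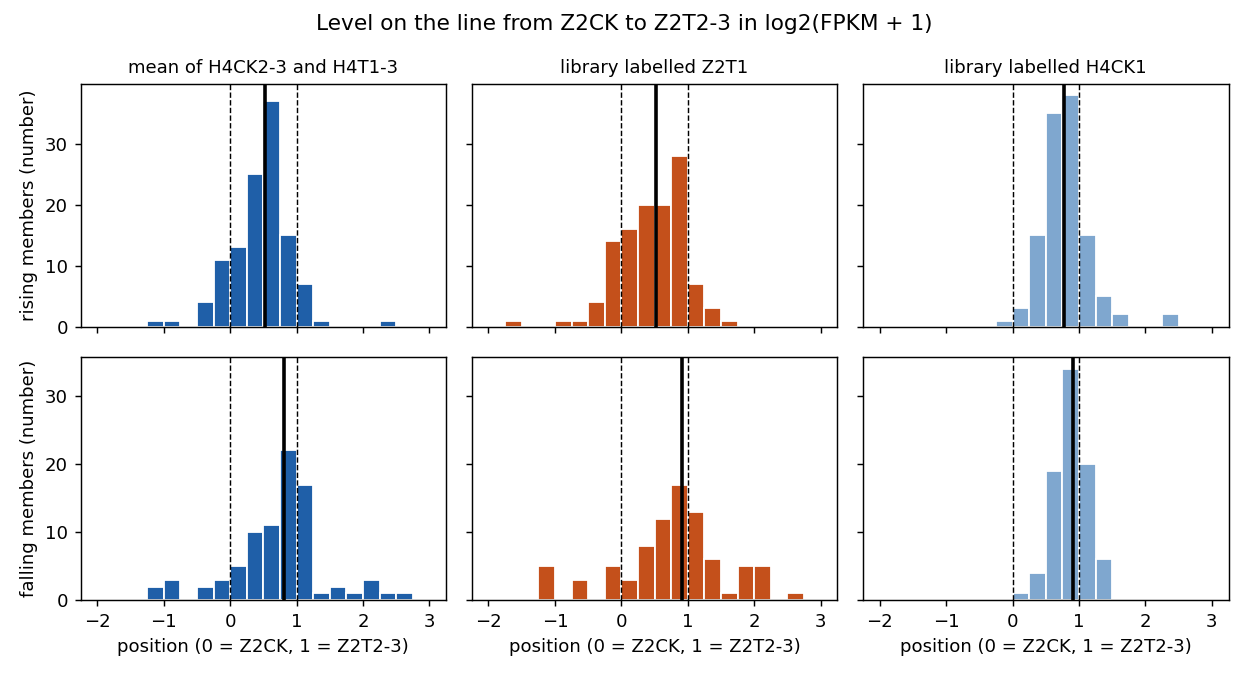
Number of members by position on the line from the Z2CK mean (0) to the mean of Z2T2 and Z2T3 (1), rising members above and falling members below, for the mean of the 5 H4 libraries of the rule and for the libraries labelled Z2T1 and H4CK1. The dashed lines mark 0 and 1 and the thick line the median, which is 0.52 and 0.81 for H4, 0.52 and 0.91 for Z2T1 and 0.77 and 0.91 for H4CK1.

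Over all 12 libraries, members were counted in a few shapes, which were defined after their values were seen. The shapes overlap and do not cover all members. TRINITY_DN40515_c2_g2 had several of them and TRINITY_DN39174_c4_g1 had none. In one, the 3 Z2CK libraries stood apart from the other 9. Z2CK was below all others in 48 of 116 rising members, against 4.2% of all unigenes, and above all others in 51 of 84 falling members, against 6.11%. In another shape, Z2T2, Z2T3 and the library labelled H4CK1 stood apart from the other 9. They were above in 46 rising members (5.44% of all unigenes) and below in 24 falling members (4.6%). Z2T2 and Z2T3 alone were apart from the other 10 libraries in 52 rising (5.43%) and 20 falling members (4.48%). All 3 libraries labelled Z2T stood apart from the other 9 in 11 rising (0.287%) and 3 falling members (0.499%). Since the rule required Z2T2 and Z2T3 apart from Z2CK, these shares are higher among members by choice and are a description.

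Of the rising members with Z2CK apart, TRINITY_DN40319_c4_g1 (b 3.04) had similar levels in the other 9 libraries. Its FPKM was 2.67, 4.45 and 7.02 in Z2CK1, Z2CK2 and Z2CK3. It was 45.1, 46.2 and 41.5 in Z2T1, Z2T2 and Z2T3. H4CK1, H4CK2 and H4CK3 held 41.4, 56.6 and 47.2, and H4T1, H4T2 and H4T3 held 41.6, 65.2 and 48.5. Untreated Z2 was thus low and the other 3 groups overlapped. This member was named because it had the lowest adjusted p of the members in H4CK vs. Z2CK.

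The rising member with the largest b was TRINITY_DN34800_c3_g1, with a b of 4.78, or 27.5-fold on the FPKM + 1 scale. Its FPKM was 5.41, 15.4 and 13.8 in Z2CK1, Z2CK2 and Z2CK3 and 121, 393 and 257 in Z2T1, Z2T2 and Z2T3. The H4CK libraries held 267, 105 and 168 and the H4T libraries 146, 171 and 94.8. All 9 libraries outside Z2CK were at 94.8 or above, and the highest 3 were Z2T2, H4CK1 and Z2T3. It was also among the 4 rising members with the highest mean FPKM.

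TRINITY_DN35943_c2_g1 (b 3.94) and TRINITY_DN40130_c0_g2 (b 3.57) had the same order of groups, with a very low Z2CK1. The former had an FPKM of 0.09 in Z2CK1, 4.29 in Z2CK2 and 6.05 in Z2CK3, and 36.3, 62.4 and 43.0 in Z2T1, Z2T2 and Z2T3. Its H4 libraries lay between 15.7 and 37.5. The latter had 2.85 in Z2CK1 but 17.9 and 31.9 in Z2CK2 and Z2CK3, and 139, 189 and 133 in Z2T1, Z2T2 and Z2T3, with 89.0 to 111 in the 6 H4 libraries. In both, Z2CK1 was far below its partners and raised b, and Z2CK did not overlap any other group.

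In TRINITY_DN40876_c3_g4 (b 3.73) and TRINITY_DN39174_c4_g1 (b 3.45), the library labelled H4CK1 was near or above Z2T. The former had an FPKM of 59.3 and 69.0 in Z2T2 and Z2T3 and 80.7 in H4CK1, but 10.9 in Z2T1. Its other H4 libraries lay between 9.64 and 27.2, and Z2CK at 1.98, 6.85 and 4.05. The latter had 183 in Z2T2 and 222 in H4CK1, but 17.3 in Z2T3, 12.9 in Z2T1 and 7.59 to 20.2 in the other H4 libraries. Its Z2CK libraries held 0.76, 12.0 and 5.58, so Z2T3 lay within the range of H4, and of the Z2 libraries Z2T2 alone was far above it. The sixth by b was TRINITY_DN38642_c0_g4 (b 3.26), with 0.62 to 1.05 in Z2CK, 14.3 and 19.6 in Z2T2 and Z2T3, 5.42 in Z2T1 and 3.95 to 9.78 in H4.

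Of the rising members with H4 near Z2CK, 16 of 24 had Z2T2, Z2T3 and H4CK1 above the other 9 libraries, as did 5 of the 6 with H4 outside on the Z2CK side. Over all unigenes this share was 5.44%, and the share within these classes is not at hand. The rule placed Z2T2 and Z2T3 above Z2CK, and the class placed the mean of H4 near or below Z2CK. These counts are thus a description. TRINITY_DN26445_c0_g1 (b 3.20) had an FPKM of 31.7 and 21.4 in Z2T2 and Z2T3, 4.87 in Z2T1 and 6.06 in H4CK1. Its Z2CK libraries held 1.81, 2.95 and 1.32 and the other H4 libraries 0.67 to 5.30. TRINITY_DN38460_c3_g1 (b 2.51) had 52.3 and 34.8 in Z2T2 and Z2T3 and 22.1 in H4CK1, and 3.41, 6.27 and 13.1 in Z2CK. Its other H4 libraries lay at 0.17 to 0.90 and Z2T1 at 0.62, all below Z2CK. Both had Z2T1 among or close to the H4 values and away from Z2T2 and Z2T3. H4 lay beyond Z2T in TRINITY_DN38927_c0_g2 (b 1.75), with 0.48, 0.85 and 1.00 in Z2CK, 6.77, 4.44 and 5.44 in Z2T1, Z2T2 and Z2T3, 2.63 in H4CK1 and 4.04 to 11.1 in the other H4 libraries.

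TRINITY_DN39097_c0_g1 (b 2.18) was high in the 3 libraries labelled Z2T. Its FPKM was 3.97, 5.33 and 4.03 there and 1.89 in H4CK1. Z2CK held 0.14, 0.41 and 0.19, H4CK2 and H4CK3 0.07 and 0.05, and H4T 0.17, 0.15 and 0.15. Water-cultured Z2 thus did not overlap any other group, and the library labelled H4CK1 was the next highest.

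The other rising members with the highest mean FPKM changed less. TRINITY_DN39925_c1_g1 (b 1.59) was at 89.2, 145 and 157 FPKM in Z2CK, 345, 371 and 395 in Z2T and 179.6 to 352 in H4. TRINITY_DN42086_c0_g4 (b 2.42) had 24.2, 91.0 and 115 in Z2CK, 276, 408 and 289.9 in Z2T and 143 to 317 in H4. In TRINITY_DN36507_c2_g4 (b 1.80), Z2CK was at 46.6, 67.6 and 129, Z2T at 183, 273 and 249, and H4 at 104 to 191. In the last of these Z2CK3 overlapped H4, and in the other 2 Z2CK was below every other library.

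**Figure D4:**
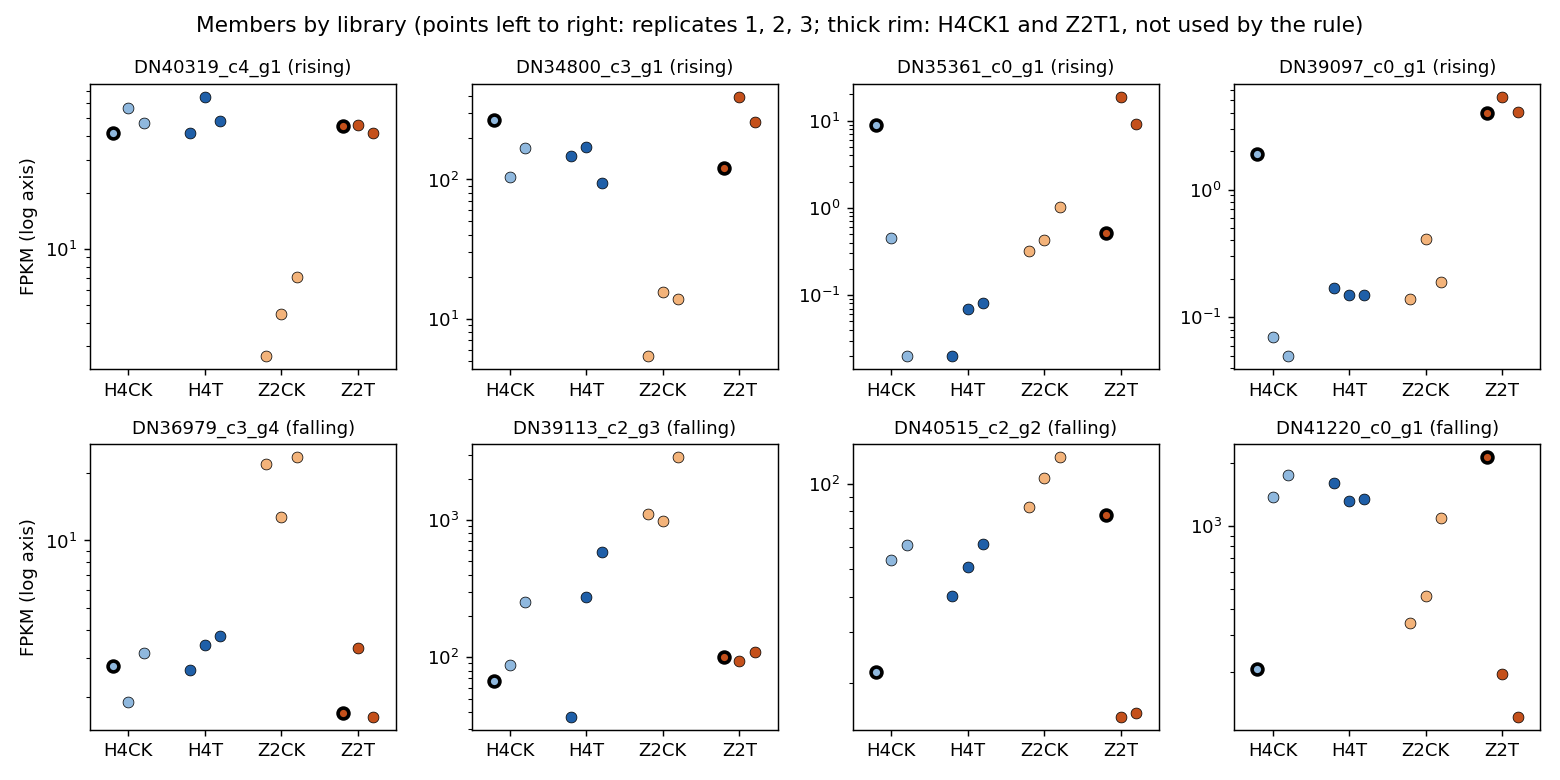
FPKM on a log axis of 4 rising (top) and 4 falling members (bottom) in the 12 libraries, 1 point per library, with replicates 1, 2 and 3 from left to right in each group. The thick rims mark the libraries labelled H4CK1 and Z2T1: in TRINITY_DN35361_c0_g1, TRINITY_DN40515_c2_g2 and TRINITY_DN41220_c0_g1 H4CK1 sits near Z2T2 and Z2T3 and Z2T1 does not, while in TRINITY_DN40319_c4_g1 and TRINITY_DN36979_c3_g4 the 3 Z2CK libraries stand alone.

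The falling member with the largest absolute b was TRINITY_DN31103_c0_g1, at -5.60, or 48.5-fold lower on the FPKM + 1 scale. Its FPKM was 0.20 and 0.42 in Z2T2 and Z2T3 and 0.79 in H4CK1. Z2CK held 330.1, 28.9 and 24.6, Z2T1 82.2, H4CK2 and H4CK3 143 and 26.8, and H4T 108, 17.5 and 62.3. The 3 low libraries were thus separate from the other 9, which ranged from 17.5 to 330.1.

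TRINITY_DN39113_c2_g3 (b -3.83) had the next largest absolute b and one of the highest mean FPKM values. It held 1108, 982 and 2862 in Z2CK and 99.9, 93.7 and 110.0 in Z2T. H4 ranged from 67.6, 88.0 and 254 in H4CK to 36.9, 275 and 588 in H4T, so its a of 0.28 averaged over widely scattered H4T values. Z2CK did not overlap any other group.

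In TRINITY_DN39283_c2_g1 (b -3.05), TRINITY_DN34616_c3_g2 (b -2.83) and TRINITY_DN37266_c1_g1 (b -2.80), Z2CK was likewise above all other libraries. The first had 9.10, 28.3 and 12.1 in Z2CK, 0.37 to 1.61 in Z2T and 0.23 to 6.62 in H4. The second had 30.3, 48.7 and 20.5 in Z2CK, 1.46 to 3.70 in Z2T and 1.44 to 10.6 in H4. The last had 20.9, 40.3 and 19.8 in Z2CK, 2.40 to 3.29 in Z2T and 1.56 to 9.08 in H4. In these, H4CK3 was the highest H4 library. TRINITY_DN37786_c0_g3 (b -2.90) had 1.89 and 2.70 in Z2T2 and Z2T3, and its Z2CK values of 8.66, 47.2 and 30.1 overlapped H4, which ranged from 3.86 to 33.6.

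TRINITY_DN36979_c3_g4 (b -2.55) and TRINITY_DN38416_c3_g1 (b -1.45) had little spread outside Z2CK. The former held 21.9, 12.7 and 23.5 FPKM in Z2CK and 1.64 to 3.75 in the other 9 libraries. The latter had 19.1, 16.5 and 12.9 in Z2CK and 4.34 to 6.47 in the other 9. In both, Z2CK was above all 9.

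Other falling members were high in H4 as well as in untreated Z2. TRINITY_DN40515_c2_g2 (b -2.65), chosen for the plot after its values were seen, had 82.7, 105 and 124 in Z2CK, 15.2 and 15.7 in Z2T2 and Z2T3, and 40.2 to 61.6 in H4CK2, H4CK3 and H4T. The libraries labelled Z2T1 and H4CK1 had 77.6 and 21.8. TRINITY_DN40720_c3_g3 (b -2.13) had 13.7, 17.6 and 13.4 in Z2CK, 17.0 to 31.8 in the 5 H4 libraries of the rule and 19.1 in Z2T1, but 5.69 and 0.94 in Z2T2 and Z2T3 and 5.52 in H4CK1. In both, Z2T2, Z2T3 and H4CK1 were below the other 9 libraries. TRINITY_DN38852_c7_g1 (b -2.21) was unlike these and low in H4. Its Z2CK libraries were above all others, and the mean of H4 lay below Z2T2 and Z2T3. It held 62.7, 114 and 88.3 in Z2CK, 19.8 and 15.9 in Z2T2 and Z2T3, 17.4 in H4CK1, 2.21 in Z2T1 and 1.50 to 18.1 in the other H4 libraries.

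In the remaining falling members with the highest mean FPKM, Z2T2, Z2T3 and H4CK1 were again below the other 9 libraries. TRINITY_DN41220_c0_g1 (b -1.85) had 343, 462 and 1092 in Z2CK and 196 and 122 in Z2T2 and Z2T3. It had 1319 to 1762 in the 5 H4 libraries of the rule and 2137 in Z2T1, but 207 in H4CK1. TRINITY_DN41220_c0_g3 (b -1.81) and TRINITY_DN41570_c1_g1 (b -1.69) had values that ran in parallel, with 701 to 906 and 729 to 921 in those H4 libraries, 1107 and 1081 in Z2T1, and 95.6 and 133 in H4CK1. In all 3, untreated Z2 was lower than those H4 libraries. Reads could be split between such near-parallel unigenes, so their separate values are uncertain.

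Cultivar differences were tested with limma on log2(FPKM + 1) over all 12 libraries as labelled, with Benjamini-Hochberg adjustment over 27628 unigenes. Of the members, 199 passed its filter of an FPKM of at least 1 in 3 libraries, 115 rising and 84 falling. The stricter thresholds, those of the study's methods, asked for an adjusted p below 0.001 and a log2 fold change of 2 or more in either direction, and the looser ones for 0.05 and 1. At the stricter thresholds, limma called 0 members in H4CK vs. Z2CK (0.00724% of all unigenes) and 0 in H4T vs. Z2T (0.00724%). At an unadjusted p under 0.05 there were 122 and 27 members, beside 14.9% and 13.2% of all unigenes. At the looser thresholds, 23 members were called in H4CK vs. Z2CK, against 0.489% of all unigenes. Of these, 7 were rising members lower in Z2CK (0.221%) and 16 were falling members higher in Z2CK (0.268%). In H4T vs. Z2T 1 of 199 members was called, no more than the share of all unigenes (0.568%). The rule chose members on Z2CK, on Z2T2 and Z2T3 and on H4, so the calls in both cultivar comparisons rest on values that chose the members and are a description.

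Positive fold changes mean higher in Z2. In H4CK vs. Z2CK, TRINITY_DN40319_c4_g1 had a limma log2 fold change of -3.17 (SE 0.27, adjusted p = 0.00144), and over 18 alternatives the adjusted p lay between 0.000268 and 0.0193. TRINITY_DN34800_c3_g1 had -3.86 (SE 0.51, limma adjusted p = 0.0168, 0.00112 to 0.0846 over the alternatives). TRINITY_DN36979_c3_g4 had 2.47 (SE 0.30, limma adjusted p = 0.0119, 0.00144 to 0.0757) and TRINITY_DN38416_c3_g1 had 1.56 (SE 0.19, limma adjusted p = 0.0120, 0.000862 to 0.0774). The call in H4T vs. Z2T was TRINITY_DN39097_c0_g1, 2.23 higher in Z2T on the log2 scale (SE 0.37, limma adjusted p = 0.0291, 0.0031 to 0.185), and it passed the looser thresholds in 8 of 17 alternatives. These members were chosen by their adjusted p, after values were seen, since 0 passed the stricter thresholds. The median fold change in H4CK vs. Z2CK was -1.09 over rising and 1.50 over falling members, with median SEs of 0.49 and 0.48, beside 0.03 over all tested. In H4T vs. Z2T it was 0.61 and -0.32, beside -0.03.

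Without the libraries labelled H4CK1 and Z2T1, limma called more unigenes, members and others alike. At the looser thresholds, H4CK vs. Z2CK had 70 of 198 members, 29 rising and 41 falling, against 12.5% of 26261 unigenes. H4T vs. Z2T had 50 members, against 10.4%. At the stricter thresholds these counts were 8 (1.93% of all unigenes) and 4 (1.73%). The median fold changes were then -0.91 and 1.32 in H4CK vs. Z2CK and 0.93 and -0.36 in H4T vs. Z2T.

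Groups of libraries that did not overlap were also counted. The rule chose members on Z2CK, on Z2T2 and Z2T3 and on H4, so these counts too are a description. H4CK and Z2CK did not overlap in 62 of 116 rising members with Z2CK lower (7.49% of all unigenes), and in 56 of 84 falling members with Z2CK higher (10.7%). The opposite order was found in 1 rising and 0 falling members. Without H4CK1 the counts were 65 (18.9%) and 57 (29.2%), with 7 rising and 6 falling members in the opposite order. H4T and Z2T did not overlap in 21 rising members with Z2T higher (7.31%) and in 8 falling members with Z2T lower (14.8%), the latter at 9.52% of 84 below the share of all. The opposite order was found in 2 rising and 4 falling members. Without Z2T1 the counts were 78 (22.7%) and 36 (26.3%), with 2 rising and 9 falling members in the opposite order. Leaving out H4T1 instead gave 49 and 23, and leaving out H4T2 gave 13 falling members. Fewer libraries can only raise such counts, among members and all unigenes alike. No share of all unigenes is at hand for these last counts, so nothing is read from them.

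The contrasts that chose the members are given beside their background only. In Z2CK vs. Z2T, 60 of 199 members passed the looser thresholds in limma (1.34% of all unigenes) and 0 the stricter ones (0.0109%), with 157 at an unadjusted p under 0.05 (18.4%). Without H4CK1 and Z2T1, 163 of 198 members passed the looser (13.4%) and 7 the stricter thresholds (1.28%). In H4CK vs. H4T 0 members passed the looser (0.471%) or the stricter thresholds (0.00362%), with 1 at an unadjusted p under 0.05 (13.5%). For the difference between the responses of the cultivars, the interaction, 0 members passed the stricter thresholds (0% of all unigenes) and 1 the looser ones (0.0615%), while 133 had an unadjusted p under 0.05 (10.2%). The interaction is the test of whether Z2 and H4 differ in response, and all but 1 of the members tested missed its looser thresholds. Without H4CK1 and Z2T1, 8 members passed them (0.461%).

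Unigenes of a shared DN number, the first part of a Trinity identifier, can be pieces or copies of 1 gene. The 200 members had 191 DN numbers, and 9 of these held 2 members each. TRINITY_DN42086_c0_g4, described above, and TRINITY_DN42086_c0_g3 (b 2.66) moved together, the latter with an FPKM of 6.14, 33.4 and 55.2 in Z2CK, 132, 167 and 136 in Z2T and 81.2 to 179 in H4. TRINITY_DN40876_c3_g3 (b 2.36) had 3.63, 6.10 and 1.93 in Z2CK, 21.2 and 23.9 in Z2T2 and Z2T3, and 24.4 in H4CK1, an order also seen in TRINITY_DN40876_c3_g4. Reads may be shared within such pairs, so they are not separate evidence.

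The other pairs named differed. TRINITY_DN35361_c0_g3 (b 2.11) had 5.45, 29.8 and 35.1 in Z2CK, 85.6, 102 and 65.8 in Z2T and 56.9 to 83.1 in H4. Its partner TRINITY_DN35361_c0_g1 (b 3.19) had 18.9 and 9.25 in Z2T2 and Z2T3 and 9.01 in H4CK1, and 0.02 to 1.02 in the other 9 libraries, so the former was low in Z2CK and the latter high in Z2T2, Z2T3 and H4CK1. The members of DN34557 went opposite ways. TRINITY_DN34557_c0_g1 went from 2.55, 3.28 and 4.92 in Z2CK to 22.7 and 38.4 in Z2T2 and Z2T3. TRINITY_DN34557_c2_g1 went from 7.12, 3.54 and 4.11 to 0.45 and 1.22 in the same libraries. Among 337 other unigenes with a DN number of a member, 47 (13.9%) had an absolute b of at least 1 in the direction of the member and 32 (9.50%) against it, beside 7.83% of all unigenes at 1 or above and 7.34% at -1 or below.

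The limits cut through continuous values. The last rising members taken were TRINITY_DN40146_c1_g1 and TRINITY_DN40416_c1_g1, with a b of 1.43 and 1.42, and the next outside were TRINITY_DN33807_c1_g1 and TRINITY_DN35094_c0_g1 with 1.42 and 1.40. For falling members, TRINITY_DN32742_c0_g1 and TRINITY_DN40132_c1_g1 were inside at -1.44 and -1.44, and TRINITY_DN33494_c0_g1 and TRINITY_DN36728_c1_g1 outside at -1.41 and -1.41. On the limit for H4, TRINITY_DN40506_c1_g4 and TRINITY_DN39367_c1_g1 were inside with an a of -0.40 and -0.39, and TRINITY_DN37612_c0_g1 and TRINITY_DN35052_c0_g1 outside with 0.40 and 0.40. Among falling unigenes, TRINITY_DN38189_c3_g1 and TRINITY_DN39761_c1_g5 were inside with 0.40 and -0.40, and TRINITY_DN31491_c0_g1 and TRINITY_DN37944_c0_g7 outside with -0.40 and -0.40. Members at either limit are thus like unigenes left out.

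The split into 116 rising and 84 falling members depended on the scaling. With every library scaled to the same sum, 100 of 200 were rising and 164 members were shared with the set above. With median-of-ratios scaling, 136 were rising and 166 were shared. The median b over all 22261 unigenes was -0.01 as deposited, -0.12 at equal sums and 0.00 with median-of-ratios scaling.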

How the data were processed

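The values the authors deposited were FPKM, to 2 decimals, in 12 stem libraries, with 1 row per Trinity unigene. The paper describes mapping to a ramie genome with HISAT2 and FPKM from RSEM, and the notes of the submitters name DESeq. The assembly and counting behind these Trinity unigenes were not given in the sources used here. Each column was matched to a library by label, and the deposited values were not rescaled. FPKM hides the reads behind a value, so a low value may rest on few reads, and the pseudocount of 1 shrinks differences of low unigenes. The filter above 0 in all 12 libraries used H4CK1 and Z2T1 as well.

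Group differences were fitted in limma 3.58.1 (R 4.3.3) with the trend option, on log2(FPKM + 1), in 1 fit of the 4 groups with 8 residual degrees of freedom. Thresholds were those of the paper's methods, an absolute log2 fold change of 2. Its results section gives a fold change of 2, a log2 fold change of 1, which with an adjusted p of 0.05 made the looser thresholds. FPKM values are not counts, which barred a count test. Selection and fit were tested on simulated data. Tables and plots were made in Python 3.11.15 with numpy 2.4.6, pandas 2.3.3 and matplotlib 3.10.9.

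The members, lists and tests were chosen with earlier results of these data known. Members named were, for each direction, the 6 with the largest absolute b, the 4 with the highest mean FPKM, the largest in each position class, those beside each limit, pairs of a shared DN number (up to 4) and up to 4 per cultivar comparison past the thresholds. As 0 passed, those with the lowest adjusted p were named instead. Alternatives were the pseudocount, the filter, the limit on a, the scaling, 200 members per direction, all 12 libraries, the replicate number as a block, looser thresholds and each library left out.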

Additional observations from a re-analysis of the deposited data

Results flagged for a closer look

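For TRINITY_DN40319_c4_g1, a rising member with low values in untreated Z2 alone, a test of the difference between the cultivars in their change with water culture passed the looser thresholds. Its interaction in limma over the 12 libraries was 2.97 on the log2 scale (SE 0.38, adjusted p = 0.0296 over 27628 unigenes). The difference with water culture was larger in Z2 than in H4 under all 18 alternatives, but the adjusted p passed 0.05 in 4 of them and ranged from 0.0207 to 0.162. The rule chose this member on both contrasts of the interaction, so the choice of members favours a large value here and it is a description.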

How the results depend on the processing

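The number of unigenes within the limits was 548, and it became 350 when every library had to reach an FPKM of 1, 2330 with no filter and 255 with a limit on a of 0.2. With no filter 90% of the 200 taken rose, and with the FPKM filter H4 was near Z2CK in 6.5% of them. Without H4CK1 and Z2T1, Z2T2 and Z2T3 stood apart from the rest in 77 rising and 31 falling members, and Z2CK in 54 and 52. The shapes then set unlike numbers of libraries apart, and no share of all unigenes is at hand. These counts are therefore not ranked. Leaving out 1 library at a time gave 487 to 738 unigenes within the limits, a rising share of 45% to 70%, H4 near Z2CK in 7.5% to 20% and near Z2T in 25% to 46.5%, Z2T1 past Z2CK in 66.5% to 84.5% and H4CK1 past the other H4 libraries in 39.5% to 58%. For the members as chosen, it gave Z2CK apart from all others in 48 to 67 rising and 51 to 56 falling members, Z2T2, Z2T3 and H4CK1 apart in 46 to 70 and 24 to 29, Z2CK and H4CK not overlapping in 62 to 79 and 56 to 66, and Z2T and H4T not overlapping in 21 to 78 and 8 to 36. Without both H4CK1 and Z2T1, Z2T and H4T did not overlap in 78 and 36. Leaving out a library can only raise these counts, among members and all unigenes alike. Shares of all unigenes are given above only for all 12 libraries, without H4CK1 and without Z2T1. At the stricter limma thresholds, 0 to 0 members were called in each comparison when any 1 library was left out, while without both H4CK1 and Z2T1 there were 8 between the control groups, 4 between the treated groups and 7 within Z2 (1.28% of all unigenes), whose contrast chose the members. At the looser thresholds these 3 counts were 23, 1 and 60, and 1 for the interaction; leaving out 1 library moved these to 1 to 34, 0 to 3, 6 to 107 and 0 to 3. H4CK2 (1 member) and Z2CK1 (2 members) had the most effect in H4CK vs. Z2CK. The deviations of same-numbered libraries from their group means correlated at -0.26 to 0.17 across unigenes. Each of these comparisons included H4CK or Z2T, whose deviations carry the libraries labelled H4CK1 and Z2T1. Whether replicate numbers pair the samples could therefore not be judged. With the replicate block, 0 members passed the stricter thresholds and 1, 0, 4, 0 and 0 the looser ones for the control, treated, Z2, H4 and interaction contrasts. The cause of these shifts was not tested. The depth is unknown, so values near 0 carry an unknown counting error.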
